A study of Mus musculus with 4 samples.

Results

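The genes described here encode enzymes by which liver makes glucose and builds or breaks down glycogen. They are Pck1, Pck2, G6pc, G6pc3, Fbp1, Pcx, Pygl, Gys1 and Gys2, chosen by name for their role in these pathways. All 9 are present among the 52630 gene identifiers of the table. The samples are AML12 cells, a non-tumour mouse hepatocyte line derived from animals with a human TGF-alpha transgene. One group was infected with shTopors lentivirus, which carries a short hairpin RNA against Topors, a ligase for ubiquitin and SUMO, and the other with shCtrl lentivirus, each with 2 libraries. Each well received 200 µl of concentrated virus, the medium was replaced after 24 hours and cells were harvested on day 5. Both groups grew in DMEM/F12 with 10% serum, an insulin, transferrin and selenium supplement and 0.1 µM dexamethasone, a synthetic glucocorticoid. After removal of ribosomal RNA, total RNA was made into libraries that keep the strand.

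In gluconeogenesis, pyruvate carboxylase and a phosphoenolpyruvate carboxykinase turn pyruvate into phosphoenolpyruvate, fructose-1,6-bisphosphatase removes a phosphate further along, and glucose-6-phosphatase releases free glucose. Glycogen synthase lengthens glycogen and glycogen phosphorylase shortens it. Several of these steps have one isozyme typical of liver and another found in muscle or in most cells. In liver, glucagon and glucocorticoids raise transcription of Pck1 and G6pc and insulin lowers it, and the medium of both groups held a glucocorticoid and insulin.

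Levels are TPM, a transcript abundance scaled by gene length and to the same total in each library, and can be compared between genes. TPM keeps no depth, so the number of reads behind a value is unknown. Topors itself was at 4.31 and 4.65 TPM in shTopors cells, against 21.9 and 29.2 TPM in shCtrl cells, so the labels and the targeted gene went together. Its adjusted p was 0.0823 in limma's fit across all genes. Of 12 hepatocyte markers, 11 were found by symbol and 10 had a mean of at least 1 TPM, with sums of 7404 and 5425 TPM in shTopors cells and 6102 and 6966 TPM in shCtrl cells. Of 6 bile duct markers 5 had a mean of at least 1 TPM, and their sum was 1891 and 1091 TPM in shTopors cells and 953 and 1414 TPM in shCtrl cells. No marker of stellate cells, endothelium or leukocytes reached a mean of 1 TPM, and their sums were at most 1.50 TPM in any library, which was the leukocyte sum in shTopors 2.

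The 9 genes separated into 4 with clear RNA and 5 at or close to 0. Pck2, G6pc3, Gys1 and Pcx had means of 73.3, 25.8, 14.2 and 7.53 TPM over the 4 libraries, and neighbours in this order did not overlap in any library. Fbp1, G6pc and Pck1 stayed under 1 TPM in each library, and Pygl and Gys2 were listed at 0 in all 4. The liver-typical isozyme was the low one or the one listed at 0 at the carboxykinase, phosphatase and synthase steps, in both groups alike. Of all identifiers, 13509 reached a mean of 1 TPM, 11391 lay under it with a value above 0, and 27730 were listed at 0 throughout. In bulk RNA, fewer cells that hold a transcript and less of it per cell cannot be told apart.

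**Figure D1:**
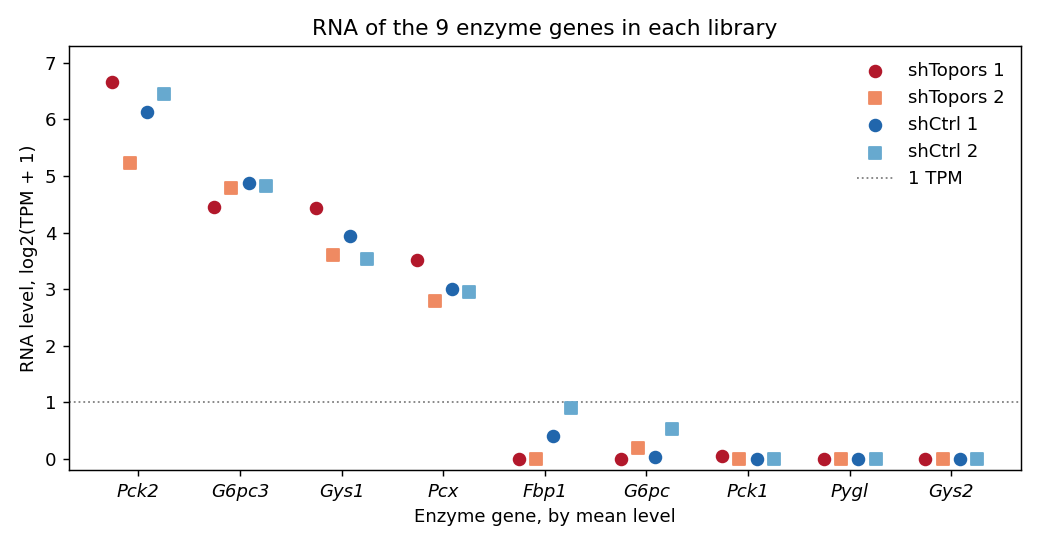
RNA level as log2(TPM + 1) of each of the 9 enzyme genes, with a point per library and the dotted line at 1 TPM. Pck2, G6pc3, Gys1 and Pcx lie above the line in all 4 libraries and the other 5 genes lie below it.

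Pck1 and Pck2 encode the cytosolic and the mitochondrial phosphoenolpyruvate carboxykinase. Pck1 (ENSMUSG00000027513, mm10 chromosome 2, 173153048 to 173159273, plus strand) was at 0.0427 and 0 TPM in shTopors cells and at 0 and 0 TPM in shCtrl cells. Pck2 (ENSMUSG00000040618, chromosome 14, 55540266 to 55551242, plus strand) was at 100.2 and 36.8 TPM in shTopors cells and at 69.5 and 86.7 TPM in shCtrl cells. Pck2 therefore made up at least 99.96% of the summed carboxykinase TPM in each library. The shTopors libraries stood on opposite sides of both shCtrl libraries, so the groups overlapped. Group means of Pck2 were 68.5 ± 44.8 TPM in shTopors cells and 78.1 ± 12.1 TPM in shCtrl cells (SD, n = 2 each). The difference in log2(TPM + 1) was -0.35 (SE 0.449, 95% interval -1.40 to 0.71), with an adjusted p of 0.723 in limma's fit.

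The direction for Pck2 differed between the shTopors libraries. Without shTopors 1 the log2 difference was -1.06, and without shTopors 2 it was 0.36. The lone library of a group was assumed in these fits to vary like the other group. Within shTopors the log2 gap between libraries was 1.42, a size that 4.46% of tested genes equalled or exceeded. Within shCtrl the gap was 0.31, which 41.6% of tested genes equalled or exceeded. The summed bile duct markers and the summed hepatocyte markers, given above, were both highest in shTopors 1 as well. Their part in the Pck2 values was not tested.

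The 250 bases before the RefSeq start of these genes are shown for the carboxykinase and phosphatase pairs, whose members share a reaction and differ most in RNA. Sequences are from RefSeq on build GRCm38.p6, 5′ to 3′ on the gene's strand, at chr2:173152823-173153072, chr14:55540016-55540265, chr11:101367466-101367715 and chr11:102189449-102189698, all on the plus strand. Capitals mark matches on either strand to 5 short motifs, which are spelled out after the sequences and were chosen once the sequences had been seen.
Pck1: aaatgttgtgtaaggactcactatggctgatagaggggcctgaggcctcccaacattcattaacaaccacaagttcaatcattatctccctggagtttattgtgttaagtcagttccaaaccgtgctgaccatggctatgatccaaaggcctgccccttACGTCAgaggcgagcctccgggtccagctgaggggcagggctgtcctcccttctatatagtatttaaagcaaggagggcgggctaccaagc
Pck2: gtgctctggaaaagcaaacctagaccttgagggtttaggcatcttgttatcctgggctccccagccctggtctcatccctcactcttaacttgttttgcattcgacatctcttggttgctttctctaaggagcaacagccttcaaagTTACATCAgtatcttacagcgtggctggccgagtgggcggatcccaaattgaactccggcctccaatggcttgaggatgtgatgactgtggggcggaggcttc
G6pc: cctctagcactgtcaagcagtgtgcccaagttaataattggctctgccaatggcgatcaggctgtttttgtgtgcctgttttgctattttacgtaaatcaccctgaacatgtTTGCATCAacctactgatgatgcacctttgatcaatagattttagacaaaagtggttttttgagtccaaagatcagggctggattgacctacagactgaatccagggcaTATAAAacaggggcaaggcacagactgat
G6pc3: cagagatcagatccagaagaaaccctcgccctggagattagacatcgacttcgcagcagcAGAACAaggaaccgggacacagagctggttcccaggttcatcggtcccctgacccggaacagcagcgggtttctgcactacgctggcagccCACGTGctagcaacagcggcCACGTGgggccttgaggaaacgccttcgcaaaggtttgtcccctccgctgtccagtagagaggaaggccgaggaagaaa

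The Pck1 window held ACGTCA, the core of a cyclic AMP response element, at 91 to 86 bases before the start, as do 6.47% of 32851 RefSeq windows of this length. Cyclic AMP is known to act on Pck1 through such an element close to its start. The element TGATGNAA, bound by ATF4 with a C/EBP partner, matched on the minus strand at 103 to 96 bases in Pck2 and at 138 to 131 bases in G6pc, and 3.45% of all windows hold it. The TATA box letters TATAAA, held by 12.4% of windows, matched in G6pc at 29 to 24 bases. In G6pc3 the E-box CACGTG, held by 6.02% of windows, matched at 99 to 94 and at 79 to 74 bases. The short glucocorticoid receptor motif TGTTCT, held by 16.1% of windows, matched in G6pc3 at 190 to 185 bases on the minus strand. None of the 5 motifs overlapped another in these windows. These are matches of letters and say nothing of binding in AML12 cells.

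The windows also differed in their content of CG pairs, which is given here as a description of 9 windows. RefSeq windows were found for 8 of the 9 genes, all but Gys2, with an alternative start for Pcx. The ratio of observed to expected CG pairs was 0.31 for Pck1 and 0.36 for Pck2, close to the median of 0.37 over all windows. It was 0.17 for G6pc and 0.69 for G6pc3. Pygl, listed at 0 TPM, had 0.67, while Gys1 had 0.53 and Fbp1 0.30. Pcx had 0.75 at its first start and 0.20 at the other.

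G6pc and G6pc3 encode catalytic subunits of glucose-6-phosphatase, G6pc that of liver and kidney and G6pc3 one present in most tissues. G6pc (ENSMUSG00000078650, chromosome 11, 101367561 to 101377903, plus strand) was at 0 and 0.137 TPM in shTopors cells and at 0.0229 and 0.445 TPM in shCtrl cells. G6pc3 (ENSMUSG00000034793, chromosome 11, 102189620 to 102194081, plus strand) was at 21.0 and 26.5 TPM in shTopors cells and at 28.3 and 27.4 TPM in shCtrl cells. Both shTopors libraries lay below both shCtrl libraries, by less than 1 TPM for shTopors 2. G6pc3 averaged 23.8 ± 3.89 TPM in shTopors cells and 27.8 ± 0.569 TPM in shCtrl cells (SD, n = 2 each). The log2 difference was -0.23 (SE 0.265, 95% interval -0.85 to 0.40) with an adjusted p of 0.698 in limma's fit, and it stayed close to the median of all tested genes, at -0.04 beyond it. G6pc3 made up at least 98.4% of phosphatase TPM in each library, and G6pc2, the islet form, was listed at 0 in all 4. Slc37a4, the transporter that carries glucose-6-phosphate to the phosphatase, was at 76.0 and 57.8 TPM in shTopors cells and at 47.9 and 81.2 TPM in shCtrl cells, with overlapping groups.

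Fbp1 encodes the fructose-1,6-bisphosphatase of liver and kidney. It (ENSMUSG00000069805, chromosome 13, 62864753 to 62888282, minus strand) was listed at 0 in both shTopors libraries, against 0.321 and 0.866 TPM in shCtrl cells. Its mean lay under the 1 TPM needed for the test. In a fit of every gene above 0 in some library, Fbp1 entered through shCtrl alone, so that fit is not read for Fbp1. Fbp2, the muscle isozyme, held most of the RNA of this step, at 2.16 and 2.65 TPM in shTopors cells and 8.92 and 11.9 TPM in shCtrl cells. Summed over both genes the step was at 2.16 and 2.65 TPM in shTopors cells and at 9.24 and 12.8 TPM in shCtrl cells. The log2 difference of Fbp2 was -1.74 (SE 0.299), with an adjusted p of 0.127 that did not pass. The Fbp2 difference was -1.63 without shTopors 1 and -1.84 without shTopors 2. Without shCtrl 1 it was -1.93 and without shCtrl 2 it was -1.55. The groups of Fbp2 did not overlap, so its sign could not turn in these fits.

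Pcx encodes pyruvate carboxylase, the mitochondrial enzyme that makes oxaloacetate from pyruvate. It (ENSMUSG00000024892, chromosome 19, 4510472 to 4621752, plus strand) was at 10.4 and 5.90 TPM in shTopors cells and at 7.02 and 6.74 TPM in shCtrl cells. As for Pck2, both shCtrl libraries lay between the shTopors libraries. Means were 8.17 ± 3.21 TPM in shTopors cells and 6.88 ± 0.195 TPM in shCtrl cells (SD, n = 2 each), and the log2 difference was 0.17 (SE 0.335, 95% interval -0.61 to 0.96, adjusted p = 0.820 in limma's fit). Without shTopors 1 it was -0.19. The shTopors pair differed by 0.73 on the log2 scale and the shCtrl pair by 0.05.

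Gys1 and Gys2 encode glycogen synthase, Gys2 that of liver and Gys1 that of muscle and most other tissues. Gys2 (ENSMUSG00000030244, chromosome 6, 142422613 to 142473109, minus strand) was listed at 0 in all 4 libraries. Gys1 (ENSMUSG00000003865, chromosome 7, 45434844 to 45456619, plus strand) was at 20.6 and 11.1 TPM in shTopors cells and at 14.3 and 10.6 TPM in shCtrl cells. The groups overlapped, with shTopors 1 above both shCtrl libraries and shTopors 2 between them. Gys1 averaged 15.9 ± 6.70 TPM in shTopors cells and 12.5 ± 2.62 TPM in shCtrl cells (SD, n = 2 each), with a log2 difference of 0.28 (SE 0.359, 95% interval -0.57 to 1.12, adjusted p = 0.723 in limma's fit). Without shTopors 1 it was -0.14. Gys1 shares 310 exonic bases with Ruvbl2 on the opposite strand. Whether reads were assigned by strand is not given here. Ruvbl2 was at 98.8 and 63.2 TPM in shTopors cells and at 54.5 and 52.0 TPM in shCtrl cells, and its part in the Gys1 values was not tested. Pck2 shares 53 exonic bases with the antisense gene Gm10876.

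Pygl, the glycogen phosphorylase of liver (ENSMUSG00000021069, chromosome 12, 70190811 to 70231488, minus strand), was listed at 0 in all 4 libraries. The brain isozyme Pygb was at 19.8 and 13.2 TPM in shTopors cells and at 20.6 and 22.3 TPM in shCtrl cells, with an adjusted p of 0.557 in limma's fit. Both shTopors libraries lay below both shCtrl libraries, by less than 1 TPM for shTopors 1. Pygb held from 93.3% to 97.8% of phosphorylase TPM, and Pygm, the muscle isozyme, held the rest. Among hexokinases, which phosphorylate glucose on entry, Hk1 was at 61.3 and 18.3 TPM in shTopors cells and at 24.3 and 23.3 TPM in shCtrl cells, and Hk2 was at 13.2 and 4.62 TPM in shTopors cells and at 4.65 and 4.85 TPM in shCtrl cells. The high values of both hexokinases came from shTopors 1 alone.

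**Figure D2:**
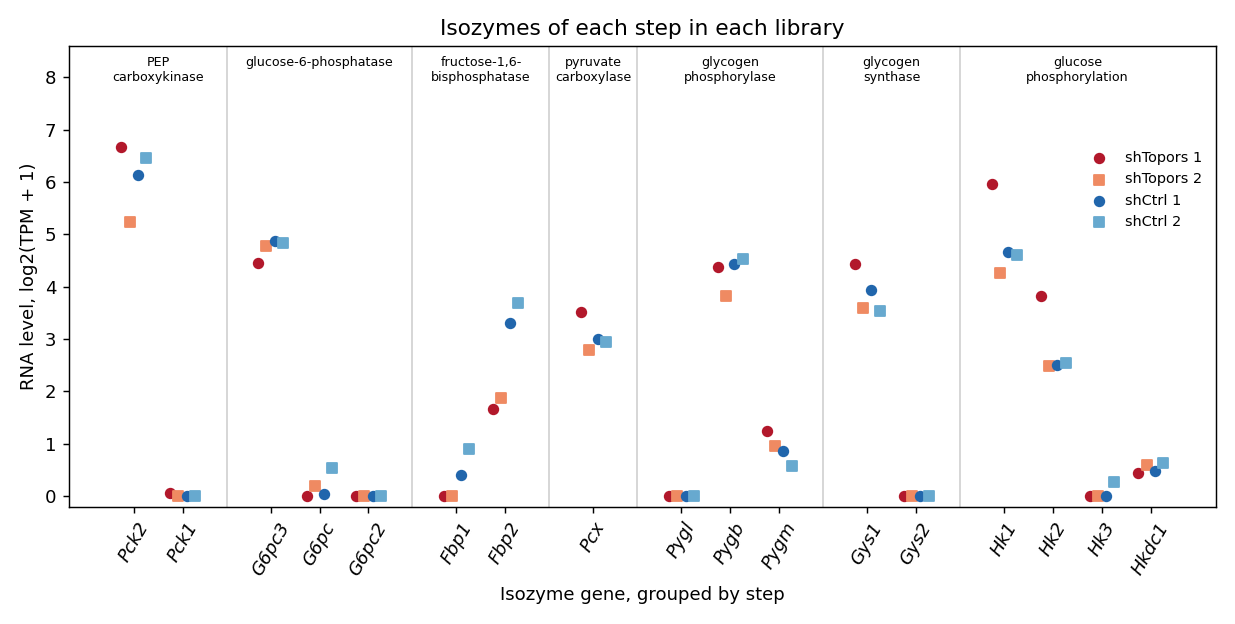
RNA level as log2(TPM + 1) of the isozymes of each step, with a point per library. The liver isozymes Pck1, G6pc, Fbp1, Pygl and Gys2 lie under 1 on this scale in all 4 libraries, and Fbp2 lies at 2.16 and 2.65 TPM in shTopors cells, below 8.92 and 11.9 TPM in shCtrl cells.

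The balance between isozymes of a step was also compared as the log2 ratio of TPM + 1 within a library. Pck2 over Pck1 was 6.60 and 5.24 in shTopors cells and 6.14 and 6.45 in shCtrl cells. G6pc3 over G6pc was 4.46 and 4.60 in shTopors cells and 4.84 and 4.30 in shCtrl cells. Gys1 over Gys2 was 4.43 and 3.60 in shTopors cells and 3.94 and 3.54 in shCtrl cells. Groups overlapped for all 3 pairs, with differences of -0.38, -0.04 and 0.28 and exact two-sided permutation p-values of 1, 1 and 0.667, where 2 libraries against 2 allow no p under 0.333. The ratio mostly restates the abundant gene, since its partner was at or near 0.

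In limma's fit across all genes, none of the 4 testable enzyme genes passed an adjusted p of 0.05, and none had an unadjusted p under 0.05. Of all tested genes 0.037% passed, 0.0074% with higher and 0.0296% with lower levels in shTopors cells, and 14.7% had such an unadjusted p, 3.98% higher and 10.7% lower. Only G6pc3 had groups that did not overlap, on the lower side, where 35.2% of tested genes also lay. None did on the higher side, against 14.6%, so 1 of 4 stood apart against 49.8% of tested genes. Pck2, Pcx and Gys1 were highest in shTopors 1, as were 24.1% of tested genes. Both shCtrl libraries lay between the shTopors libraries for Pck2 and Pcx, against 16.5% of tested genes. The median log2 difference of the 4 was -0.03, and that of all tested genes was -0.183. Median-of-ratios scaling moved the all-gene median to -0.016, and the log2 differences were then -0.16 for Pck2, -0.05 for G6pc3, 0.34 for Pcx and 0.45 for Gys1.

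**Figure D3:**
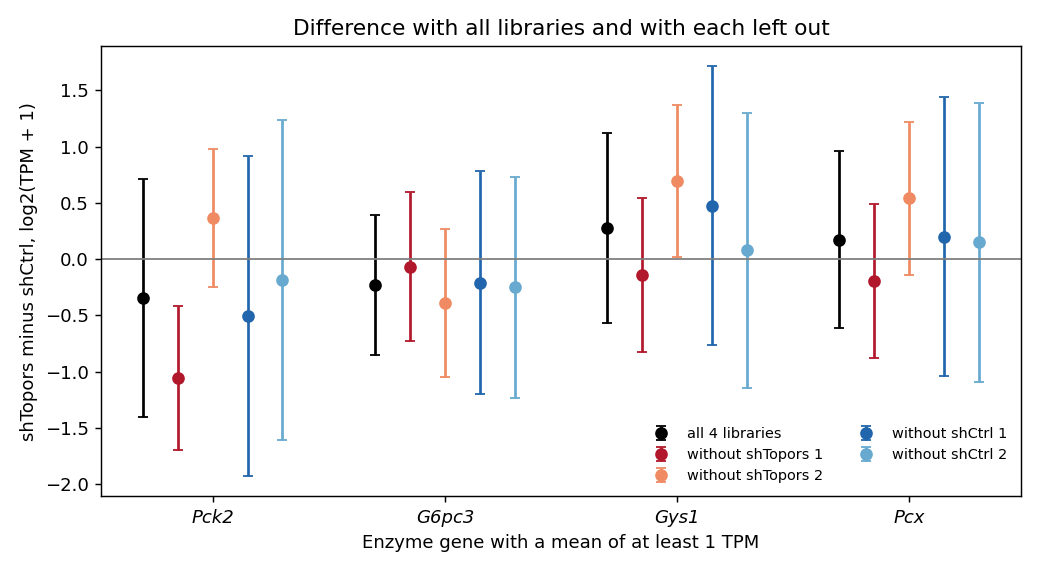
Difference shTopors minus shCtrl in log2(TPM + 1) with its 95% interval for the 4 enzyme genes that were tested, with all libraries and with each left out. The estimates of Pck2, Gys1 and Pcx change sign when a shTopors library is left out. G6pc3, whose groups do not overlap and so cannot change sign, lies from -0.39 to -0.07.

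Among genes of the members and of the wider lists below, the closest profile over the 4 libraries was sought by Euclidean distance of centred log2(TPM + 1) values. Of 98 candidates, Sik1, a kinase that restrains CRTC coactivators, was nearest to Pck2 (distance 0.185), at 49.8 and 20.1 TPM in shTopors cells and 40.4 and 50.5 TPM in shCtrl cells. Shmt2 was nearest to Pcx (0.0772), Gsk3a, a kinase that inhibits glycogen synthase, to G6pc3 (0.105), and Eno1 to Gys1 (0.222). Median distances to all candidates were from 0.80 to 1.09. The nearest candidate lies below the median by construction, and shared regulation was not tested.

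The wider pathway was read from 7 lists with 110 genes, of which 95 reached a mean of 1 TPM. None passed the adjusted threshold in either direction, against 0.037% of all tested genes. In limma's fit 27 of the 95 had an unadjusted p under 0.05, a larger share than the 14.7% of all tested genes. The lists were chosen with earlier results of these data known, so that share is not read as a result. The median log2 difference of the 95 genes was -0.21, beside -0.183 for all tested genes. Under median-of-ratios scaling it was -0.02, beside -0.016. Without shTopors 1 their median was -0.36, beside -0.155 for all tested genes, and without shTopors 2 it was 0.0, beside -0.194. Without shCtrl 1 it was -0.27, beside -0.26, and without shCtrl 2 it was -0.15, beside -0.094.

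Sugar transport and phosphorylation had 6 of 10 genes tested, 1 not overlapping and higher and 1 lower, against 14.6% and 35.2% of all tested genes, with a median log2 difference of 0.51. Slc2a2, the GLUT2 glucose transporter of hepatocytes, was at 39.7 and 72.5 TPM in shTopors cells and 76.9 and 177.7 TPM in shCtrl cells (adjusted p = 0.326 in limma's fit). Slc2a1, the widespread GLUT1 transporter, was at 58.6 and 36.7 TPM in shTopors cells and 33.5 and 30.3 TPM in shCtrl cells (adjusted p = 0.446). Gckr was at 3.22 and 0.422 TPM in shTopors cells and 0.317 and 0.467 TPM in shCtrl cells. GLUT2 and GLUT1 thus lay on opposite sides of the controls. Gckr was above 1 TPM in shTopors 1 alone and passed the filter only through that library, so its test is not read. The list's median was -0.07 without shTopors 1 and 1.08 without shTopors 2. Of its 6 tested genes 4 were highest in shTopors 1, against 24.1% of all tested genes.

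All 9 genes of the reversible steps shared with glycolysis were tested, 4 not overlapping and higher and 1 lower, against 14.6% and 35.2% of all tested genes, with a median log2 difference of 0.58. Aldoa, an aldolase of muscle and most tissues, was at 1198 and 604 TPM in shTopors cells and 497 and 479 TPM in shCtrl cells (adjusted p = 0.324 in limma's fit). Pgam1, a phosphoglycerate mutase, was at 622 and 363 TPM in shTopors cells and 232.0 and 263 TPM in shCtrl cells (adjusted p = 0.242). The list's median was -0.01 without shTopors 1 and 1.11 without shTopors 2, and 8 of its 9 genes were highest in shTopors 1.

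The list of the opposing irreversible steps and of fructose 2,6-bisphosphate, an inhibitor of fructose-1,6-bisphosphatase, also held Fbp2, itself a fructose-1,6-bisphosphatase. Its 10 genes had a median log2 difference of 0.13, with 4 not overlapping and higher and 2 lower, against 14.6% and 35.2% of all tested genes. Beside Fbp2, the other lower gene was Pfkfb3, which makes fructose 2,6-bisphosphate, at 16.5 and 16.7 TPM in shTopors cells and 37.6 and 29.9 TPM in shCtrl cells (adjusted p = 0.222 in limma's fit). Pfkp, the platelet phosphofructokinase, was at 28.2 and 18.5 TPM in shTopors cells and 8.04 and 8.47 TPM in shCtrl cells (adjusted p = 0.172). The list's median was -0.58 without shTopors 1 and 0.51 without shTopors 2.

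Substrate supply had 15 of 18 genes tested, 2 not overlapping and higher and 4 lower, against 14.6% and 35.2% of all tested genes, with a median log2 difference of -0.16, which was 0.02 under median-of-ratios scaling. Gpt2, the mitochondrial alanine aminotransferase, was at 43.4 and 33.8 TPM in shTopors cells and 91.1 and 136.2 TPM in shCtrl cells (adjusted p = 0.143 in limma's fit). Gk, the glycerol kinase, was at 11.2 and 19.8 TPM in shTopors cells and 29.9 and 46.0 TPM in shCtrl cells (adjusted p = 0.224). Ldha, the lactate dehydrogenase A subunit, was at 987 and 430.5 TPM in shTopors cells and 328 and 325.5 TPM in shCtrl cells (adjusted p = 0.300). Gpt2 and Gk, which bring alanine and glycerol carbon in, were lower and Ldha higher in both shTopors libraries.

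Other glycogen genes had 21 of 26 tested, 1 not overlapping and higher and 8 lower, against 14.6% and 35.2% of all tested genes, with a median log2 difference of -0.23, which was -0.09 under median-of-ratios scaling. Ugp2, which makes UDP-glucose, the donor for glycogen synthase, was at 57.4 and 79.6 TPM in shTopors cells and 107 and 154 TPM in shCtrl cells (adjusted p = 0.245 in limma's fit). Ppp1r3c and Ppp1r3b, subunits that bring protein phosphatase 1 to glycogen, stood lower as well, while the groups of Ppp1r3e and Ppp1r3f overlapped. Ppp1r3c was at 0.234 and 1.03 TPM in shTopors cells and 1.89 and 3.38 TPM in shCtrl cells. Its mean in shTopors cells was 0.634 TPM, so it passed the filter only through shCtrl and its test is not read. Ppp1r3b was at 5.85 and 4.85 TPM in shTopors cells and 8.83 and 11.4 TPM in shCtrl cells (adjusted p = 0.290 in limma's fit). Gyg, the glycogenin that primes glycogen, was close in all libraries, at 21.3 and 21.2 TPM in shTopors cells and 24.8 and 24.7 TPM in shCtrl cells.

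Hormone signalling and transcription regulators had 25 of 27 genes tested, none not overlapping and higher and 15 lower, against 14.6% and 35.2% of all tested genes, with a median log2 difference of -0.50, which was -0.31 under median-of-ratios scaling. Irs1, an adaptor of the insulin receptor, was at 3.94 and 2.33 TPM in shTopors cells and 18.2 and 19.2 TPM in shCtrl cells, with an adjusted p of 0.0823 in limma's fit. The log2 difference of Irs1 was -2.28, and it was -2.56 without shTopors 1 and -2.0 without shTopors 2. Without shCtrl 1 it was -2.32 and without shCtrl 2 it was -2.24. The sign could not turn in these fits, since the groups of Irs1 did not overlap. Klf15, a glucocorticoid-induced activator of gluconeogenic genes, was at 18.8 and 17.1 TPM in shTopors cells and 33.8 and 58.5 TPM in shCtrl cells (adjusted p = 0.208). Cebpa, a liver transcription factor, was at 8.05 and 11.6 TPM in shTopors cells and 20.9 and 22.4 TPM in shCtrl cells (adjusted p = 0.218).

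The ATF4 list, for the factor known to activate Pck2 in human tumour cells, had 9 of 10 genes tested, 1 not overlapping and higher and 5 lower, against 14.6% and 35.2% of all tested genes, with a median log2 difference of -0.41, which was -0.22 under median-of-ratios scaling. Trib3, a pseudokinase that inhibits AKT, was at 8.79 and 7.45 TPM in shTopors cells and 15.6 and 17.0 TPM in shCtrl cells (adjusted p = 0.231 in limma's fit). Ddit3, the stress factor CHOP, was at 27.9 and 39.3 TPM in shTopors cells and 61.4 and 60.4 TPM in shCtrl cells (adjusted p = 0.244). Sesn2 was at 31.7 and 18.2 TPM in shTopors cells and 48.6 and 41.6 TPM in shCtrl cells (adjusted p = 0.297). Atf4 itself was at 169 and 219 TPM in shTopors cells and 247 and 265 TPM in shCtrl cells, and with Chac1 these were the 5 lower genes. The higher gene was Asns, the asparagine synthetase, at 218 and 218 TPM in shTopors cells and 143 and 188 TPM in shCtrl cells. The other 3 of the 9 tested genes were Psat1, Phgdh and Shmt2, enzymes of serine and glycine synthesis. Both shCtrl libraries lay between the shTopors libraries for these, as for Pck2 and for 16.5% of all tested genes. Shared control with Pck2 was not tested. Psat1 was at 317 and 99.7 TPM in shTopors cells and 198 and 229 TPM in shCtrl cells.

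**Figure D4:**
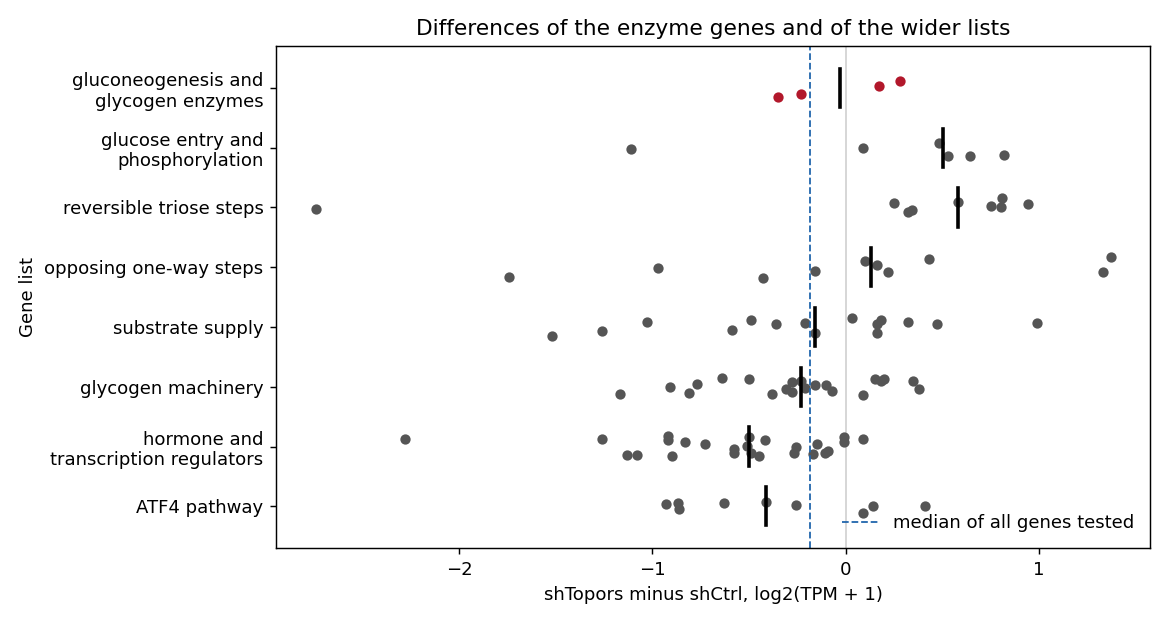
Difference shTopors minus shCtrl in log2(TPM + 1) for each tested enzyme gene (red) and each tested gene of the 7 wider lists (grey), with black bars at list medians and the dashed line at -0.183, the median of all genes tested. The 4 enzyme genes lie between -0.35 and 0.28, while the regulator list has its median at -0.50.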

How the data were processed

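The authors deposited 1 table of TPM values, with a row per gene and a column per library. Among the authors' tools, the submitters' processing notes list StringTie, HISAT2, HTSeq and DESeq2, with mm10 as build. Which program wrote the TPM, and with what strand setting, is not given in these sources. Identifiers on repeated rows were summed, and columns were assigned by name. The 13509 genes whose mean reached 1 TPM were fitted on the log2(TPM + 1) scale by limma 3.58.1 (R 4.3.3), letting the variance follow the mean. Differences are shTopors minus shCtrl, with Benjamini-Hochberg adjustment and a threshold of 0.05. Fold changes on this scale understate low genes. Coordinates are from GENCODE M21 (mm10). Depth is unknown, so no counting interval was given. Nothing in the labels says that the libraries are from separate cultures. Limma's p-values set a difference against the spread of these libraries within groups, shared across genes, and that spread may be technical. Members and lists were chosen with earlier results of these data known. All 9 members were named. Each list gives genes past the threshold or otherwise its 3 smallest p-values, some of which are not reported here, and further genes were chosen after their values were seen. Alternatives were pseudocounts of 0.1 and 5, filters, scalings, variance models, the replicate number as a block, and leaving out each library. Results over the lists under these were added after seeing the data. The main limma fit was tested on simulated data with the same spread in both groups. In the real data the SD of the log2 difference between libraries was 0.688 within shTopors and 0.429 within shCtrl.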

Additional observations from a re-analysis of the deposited data

How the results depend on the processing

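Among the 14 alternatives, none of the 4 testable enzyme genes passed where all 4 libraries were kept. Calls of these genes with 1 library left out are not read, since 1 group then held 1 library. Leaving out 1 library gave log2 differences of -1.06 to 0.36 for Pck2, -0.19 to 0.54 for Pcx, -0.14 to 0.69 for Gys1 and -0.39 to -0.07 for G6pc3. Signs turned without shTopors 2 for Pck2 (0.36) and without shTopors 1 for Pcx (-0.19) and Gys1 (-0.14), where 1 shTopors library was read. For Pck2 and Pcx a turn was bound to occur, since shCtrl lay between the shTopors libraries. For G6pc3, whose groups did not overlap, none could occur. These signs restate the order of the libraries and are no further test.

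Over all genes, 1 was higher and 4 lower. Higher and lower calls were 0 and 0 with no filter, 0 and 1 with a filter at 5 TPM, with median-of-ratios scaling, with quantile normalization and when rescaled without small RNAs, mitochondrial and the most abundant genes. They were 6 and 27 with the replicate block, where same-numbered libraries correlated at 0.199 in their deviations and share only a number; it called no member. With 1 library left out they were 0 to 687 higher and 0 to 1479 lower. The share of higher genes at an unadjusted p under 0.05 was 27.1%, and 53.8% after median-of-ratios scaling. The causes were not tested.

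G6pc3 over G6pc differed by 0.51 with a pseudocount of 0.1 and by 0.06 when rescaled, against -0.04, since G6pc is near 0. With 1 library left out the isozyme ratios ranged from -1.06 to 0.30 for Pck2 over Pck1, -0.31 to 0.23 for G6pc3 over G6pc and -0.14 to 0.69 for Gys1 over Gys2. With 2 libraries a group and unknown depth, differences of the size of these intervals could not be resolved, and genes under 1 TPM could not be compared.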
